A study of Homo sapiens with 4 samples.

Results

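The transcription factors and effectors of the integrated stress response examined here were 10 genes, ATF4, ATF5, ATF3, JDP2, CEBPB, CEBPG, DDIT3, PPP1R15A, TRIB3 and CHAC1, out of 57500 gene identifiers in the files. They were chosen by their values in these same libraries, where the NOS2KO clones had been compared with the parental cells, so the levels of the 10 genes in that comparison are a description and carry no test. The libraries came from SUM159, a triple-negative metaplastic breast cancer (MpBC) cell line that carries a PIK3CA mutation in every group. The parental group, whose genotype reads Parental Control, was 1 library, and no plasmid or puromycin treatment is described for it. The NOS2KO group was 3 libraries, each from 1 clone, labelled 1, 5 and 6. NOS2 encodes the inducible nitric oxide synthase iNOS, and the NOS2KO cells had received the NOS2 Double Nickase Plasmid and puromycin and were then picked for iNOS protein and for nitrite and nitrate. All cells grew in DMEM with serum, with no other agent named in the labels. With 1 parental library, and with each clone grown from its own founder, the loss of NOS2, transfection, puromycin and the history of a clone cannot be told apart.

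The integrated stress response joins several kinds of stress at 1 step of translation. Kinases that sense endoplasmic reticulum (ER) stress, amino acid shortage, double-stranded RNA or low heme phosphorylate the initiation factor eIF2, general protein synthesis then falls, and mRNAs with short upstream reading frames, ATF4 among them, are translated better. ATF4 protein pairs with other basic leucine zipper (bZIP) factors, C/EBP proteins among them, and drives genes of amino acid uptake and synthesis, tRNA charging, redox control and, under lasting stress, cell death. In breast cancer cells the response is known for its part in adaptation to nutrient and ER stress. Because ATF4 is controlled in large part by translation, mRNA counts say little about the activity of the protein.

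The stretches of promoter below are printed because they hold, in capitals, letters that basic leucine zipper dimers of this response are known to bind. The C/EBP-ATF composite element was searched as TGATGNAA and the cAMP response element as TGACGTCA, on both strands, from 250 bases before to 50 after each start site in the RefSeq table of GRCh38.p14. No single match can fit both patterns. All 10 genes had at least 1 start site in the table, and together they had 21 windows.
ATF3, chr1:212565176-212565263, plus strand, upstream of the gene: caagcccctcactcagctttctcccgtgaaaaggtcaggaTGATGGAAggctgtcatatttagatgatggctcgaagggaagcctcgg
JDP2, chr14:75427966-75428021, plus strand, in an intron: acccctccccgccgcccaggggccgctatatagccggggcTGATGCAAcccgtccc
CHAC1, chr15:40953251-40953280, plus strand, in an exon: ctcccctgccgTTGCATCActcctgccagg
CEBPG, chr19:33374031-33374112, plus strand, in an intron: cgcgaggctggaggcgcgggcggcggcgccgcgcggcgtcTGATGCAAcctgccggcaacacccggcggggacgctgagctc
PPP1R15A, chr19:48872323-48872391, plus strand, upstream of the gene: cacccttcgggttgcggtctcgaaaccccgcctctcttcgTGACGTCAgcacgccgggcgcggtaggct

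ATF3, JDP2, CHAC1 and CEBPG held the composite element, on the minus strand in CHAC1 and on the plus strand in the others. It began 191 bases before the start site in ATF3, 209 in CHAC1, 42 in CEBPG and 16 in JDP2. The 4 genes were 40% of the members, while 4.46% of all 27305 genes in the table held the element in at least 1 window, and 4 of the members' 21 windows (19%) held it against 3.62% of all 35116 windows. The members had more windows per gene, 21 for 10 genes against 35116 for 27305. They are known genes of this response, so the shares describe them and test nothing. The cAMP response element stood only in PPP1R15A among the members, 58 bases before the start, and was held by 1.85% of all windows. The exon and intron positions are those of the annotation in the files. It places the starts of ATF3, CHAC1 and PPP1R15A, and of the other JDP2 and CEBPG transcripts, upstream of these starts. The distances given are from the RefSeq start sites. A match is a description of letters, not of binding, and the other windows hold neither set of letters.

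**Figure D1:**
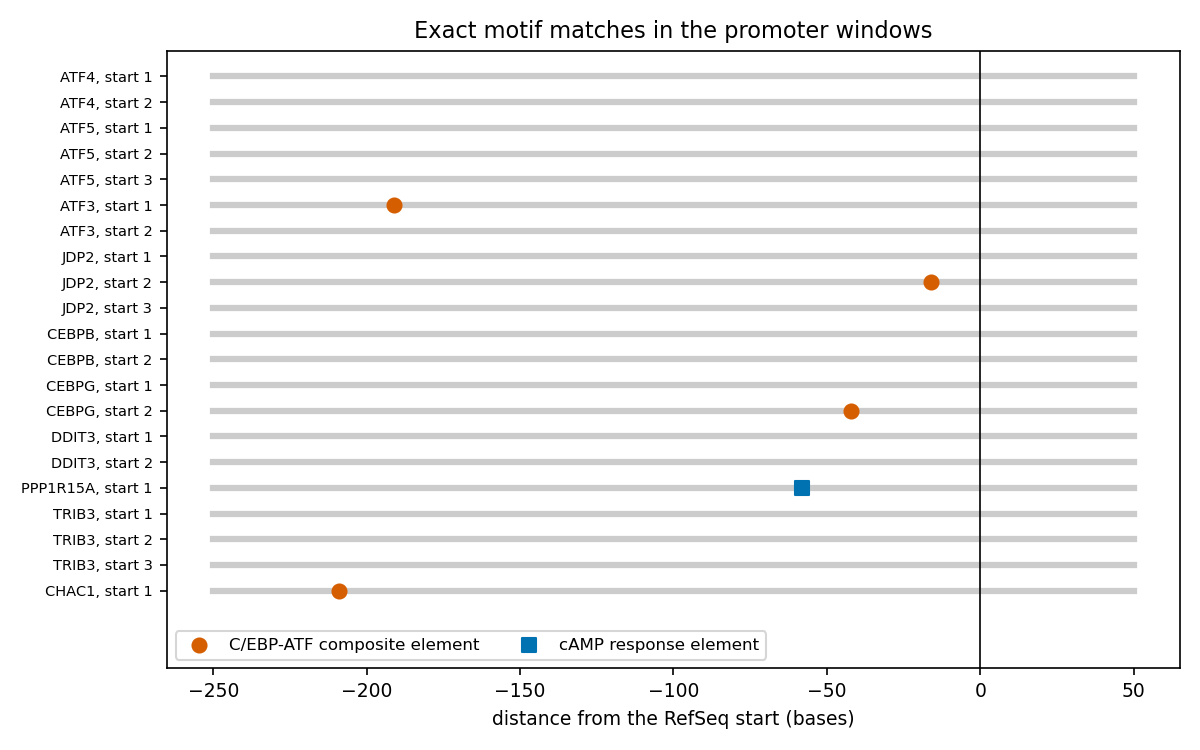
Each grey line is 1 promoter window of the 10 genes, drawn by distance in bases from its RefSeq start site, with exact matches to the C/EBP-ATF composite element as circles and to the cAMP response element as a square. The 4 composite elements lie 16 to 209 bases before a start site and the single cAMP response element lies 58 bases before that of PPP1R15A.

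The counts on genes were 90467395 in the parental library and 97362293 to 122171287 in the clones, so each of the 10 genes rests on at least 116 reads in any library. NOS2, the targeted gene, had 2 counts in the parental cells, against 3 for clone 1, 1 for clone 6 and 18 for the library labelled clone 5. NOS2 mRNA was so scarce in the parental cells themselves (0.0221 CPM) that it did not check the labels. Levels are given as CPM, counts divided by the library size after scaling with TMM, edgeR's trimmed mean method. The mesenchymal markers VIM, ZEB1 and CDH2 were present in every library. VIM was at 1655 CPM in the parental library and higher in the clones, at 2890 to 3855 CPM. ZEB1 was at 83.7 CPM and lower in the clones, at 39.5 to 57.8 CPM. CDH2 was at 159.5 CPM, with the clones on both sides of it, at 109.2 to 182.7 CPM. EPCAM and CDH1 did not exceed 0.413 CPM, ESR1 did not exceed 0.741 CPM and PGR had at most 3 counts. ERBB2 mRNA (48.3 to 106.2 CPM) was not at or near 0. PTPRC, a marker of blood cells, was at 4.45 CPM in the parental cells, against 68.4 for clone 1, 41.7 for clone 6 and 105.4 for the library labelled clone 5, and moved with the groups. The summed level of 5 other blood markers (CD3E, CD79A, CD14, SPI1 and HBB), chosen after PTPRC was seen, was 13.4 CPM in the parental library and 2.60 to 11.8 in the clones, of which CD14 alone made up 12.8 and 2.29 to 11.3 CPM, and the other 4 genes were each at or below 0.325 CPM. The part of these differences in the values below was not tested.

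All 10 genes were highest in the parental library and lower in each of the 3 clones. ATF5 was the least lowered, at a log2 ratio of -0.08 in its least lowered clone. Of the 10709 genes that reached 10 CPM in any library, 33.2% were lowered at least that much in every clone. Together the 10 genes took 0.258% of the counts on genes in the parental cells, against 0.0570% for clone 1, 0.0573% for clone 6 and 0.0599% for the library labelled clone 5. The median of the 10 fitted log2 fold changes was -2.23, against 0.10 over the 22511 genes tested, all 10 of them included. Clone by clone, the median log2 ratio against parental cells was -2.09 for clone 1, -2.80 for clone 6 and -2.55 for the library labelled clone 5, against -0.081, -0.0081 and 0.031 over all genes tested. Of the 10 genes, 8 were lower by more than 1 on the log2 scale in every clone, and 5.24% of the 10709 genes that reached 10 CPM in any library were so lowered. Since the choice of the genes used this contrast, nothing is read from these counts. ATF3, at -0.99 in its least lowered clone, was just outside this line and ATF4, at -1.12, just inside it. The 30 ratios of 10 genes in 3 clones stayed below 0 in all 4 scalings tried. In bulk RNA, fewer cells with a transcript and less of it per cell cannot be told apart.

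**Figure D2:**
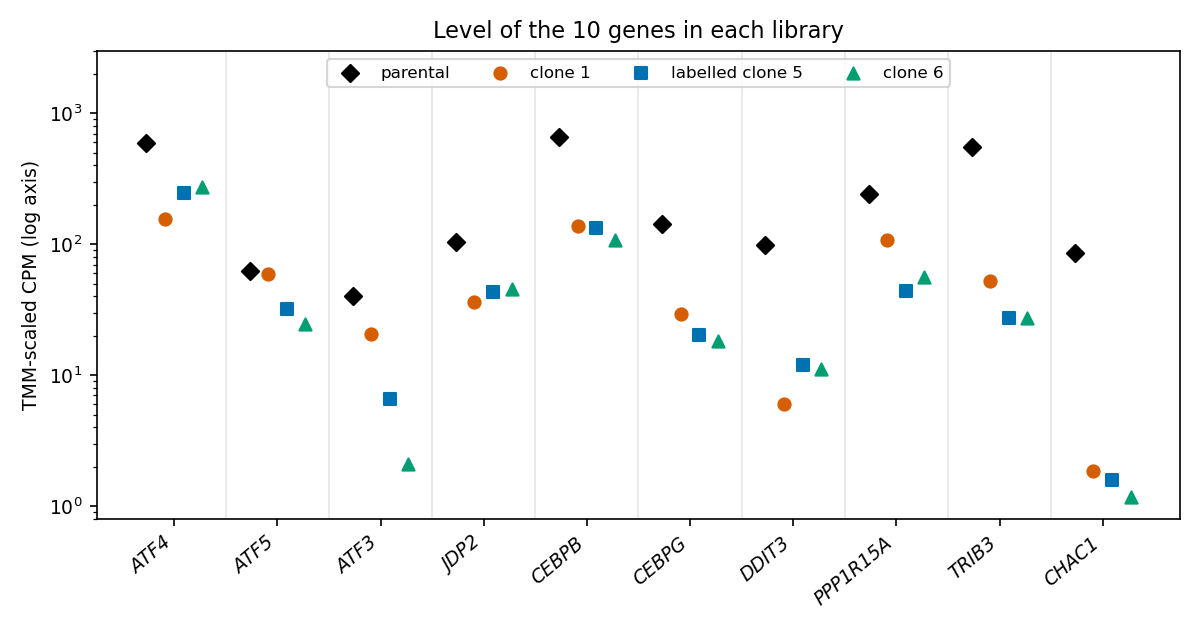
TMM-scaled CPM on a log axis of the 10 genes in the parental library (diamond), clone 1 (circle), the library labelled clone 5 (square) and clone 6 (triangle), with 1 point per library and no error bars. The diamond is the highest point of every gene, the clones lie closest together in JDP2 and CEBPB, and they spread most in ATF3, from 2.11 to 20.5 CPM.

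ATF4 (ENSG00000128272, chr22:39519695-39522685 of GRCh38), the main transcription factor of the response, stood at 593.2 CPM in the parental cells, against 157.1 for clone 1, 273.5 for clone 6 and 248.1 for the library labelled clone 5. The clones averaged 226.2 ± 61.2 CPM (SD, n = 3), and the mean was 2.62-fold under the parental level. Clone 1 was the lowest, with a log2 ratio of -1.92 (exact 95% interval of the counting error -1.94 to -1.89), and clone 6 the least lowered, with -1.12 (-1.14 to -1.10). Under upper quartile scaling the ratio of clone 6 was -0.99. The 4 processed pseudogenes ATF4P1 to ATF4P4 had at most 11 counts in a library, against 18021 or more for ATF4.

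ATF5 (ENSG00000169136, chr19:49928702-49933935), a factor related to ATF4 that also has upstream reading frames and is linked to stress in mitochondria, differed least. It was at 62.4 CPM in the parental cells, against 59.1 for clone 1, 24.8 for clone 6 and 31.9 for the library labelled clone 5. Clone 1 was close to the parental cells, with a log2 ratio of -0.08 (exact 95% interval -0.13 to -0.03), whereas clone 6 was at -1.33 (-1.40 to -1.26). Of its exon bases, 21.2% are shared with NUP62 on the opposite strand. NUP62 had 12572 counts in the parental library, 16571 for clone 1, 10705 for clone 6 and 10106 for the library labelled clone 5. ATF5 had 5640, 6780, 2445 and 3405 counts in the same order. Whether the counting used strand is not given in the sources used here, so reads of the overlap cannot be assigned.

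ATF3 (ENSG00000162772, chr1:212565334-212620777), a bZIP factor induced early by many stresses that can repress its targets, differed most among the clones. The parental library had 40.5 CPM, clone 1 had 20.5, the library labelled clone 5 had 6.56 and clone 6 had 2.11. The log2 ratios were -0.99 (exact 95% interval -1.06 to -0.91) in clone 1, -4.26 (-4.47 to -4.06) in clone 6 and -2.63 (-2.75 to -2.51) in the library labelled clone 5, so ATF3 was 1.98-fold lower in clone 1 and 19.2-fold lower in clone 6. With a clone mean of 9.71 ± 9.57 CPM (SD, n = 3), the spread was as large as the mean.

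JDP2 (ENSG00000140044, chr14:75427716-75474111), a bZIP repressor that pairs with JUN proteins and ATF3, was nearly level across the clones. It stood at 103.7 CPM in the parental cells, against 36.3 for clone 1, 45.4 for clone 6 and 43.3 for the library labelled clone 5. The log2 ratios of -1.52, -1.19 and -1.26 had a mean of -1.32 ± 0.17 (SD, n = 3). The lowering was small beside that of most of the other genes, and the clones lay well below the parental library.

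CEBPB (ENSG00000172216, chr20:50190734-50192689), a C/EBP factor of inflammation and differentiation that forms dimers with ATF4, was at 662.5 CPM in the parental cells, against 137.3 for clone 1, 106.9 for clone 6 and 134.1 for the library labelled clone 5. The clones averaged 126.1 ± 16.7 CPM (SD, n = 3), and the highest clone was 1.28-fold above the lowest. CEBPG (ENSG00000153879, chr19:33373330-33382686), a C/EBP partner of ATF4 that lacks a strong activation domain, was at 142.0 CPM in the parental cells, against 29.2 for clone 1, 18.1 for clone 6 and 20.3 for the library labelled clone 5. The mean log2 ratios were -2.40 ± 0.20 for CEBPB and -2.69 ± 0.36 for CEBPG (SD, n = 3). In both genes the clones stood together, far below the parental cells and with clone 1 the highest.

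DDIT3 (ENSG00000175197, chr12:57516588-57520517, minus strand) encodes CHOP, a C/EBP family factor tied to cell death in unresolved ER stress. Its level was 98.1 CPM in the parental cells, against 6.02 for clone 1, 11.1 for clone 6 and 11.9 for the library labelled clone 5. The clone mean, 9.68 ± 3.20 CPM (SD, n = 3), was 10.1-fold lower. As with ATF4, clone 1 was the lowest, at a log2 ratio of -4.03 (exact 95% interval -4.14 to -3.92), and the other clones were at -3.04 (labelled 5) and -3.14 (6). Of the exon bases of DDIT3, 28.0% are shared with MARS, the methionyl-tRNA synthetase gene on the opposite strand, which had 37581 counts in the parental library and 12671 to 18894 in the clones. Without the strand of the counting, reads in that overlap cannot be assigned.

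PPP1R15A (ENSG00000087074, chr19:48872392-48876057) encodes GADD34, the inducible phosphatase subunit that returns eIF2 to its unphosphorylated form. It was at 242.7 CPM in the parental cells, against 107.7 for clone 1, 56.1 for clone 6 and 43.8 for the library labelled clone 5. Clone 1 was lowered least, 2.25-fold, and the library labelled clone 5 most, 5.55-fold. The mean log2 ratio was -1.92 ± 0.67 (SD, n = 3), the second widest spread of the 10 genes after that of ATF3 (1.64).

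TRIB3 (ENSG00000101255, chr20:362835-397559), a pseudokinase induced by ATF4 and CHOP that binds both ATF4 and AKT, was among the most lowered genes. The parental library had 553.0 CPM, clone 1 had 52.4, the library labelled clone 5 had 27.4 and clone 6 had 27.1. The log2 ratio was -3.40 (exact 95% interval -3.44 to -3.36) in clone 1 and -4.35 (-4.41 to -4.29) in clone 6. The clone mean of 35.6 ± 14.5 CPM (SD, n = 3) was 15.5-fold under the parental level.

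CHAC1 (ENSG00000128965, chr15:40952962-40956519), which encodes an enzyme that cleaves glutathione, had the lowest ratios of the 10 genes. It stood at 85.5 CPM in the parental cells, against 1.87 for clone 1, 1.18 for clone 6 and 1.58 for the library labelled clone 5. These were 7731 counts against 214, 116 and 168. The mean log2 ratio was -5.82 ± 0.34 (SD, n = 3), a mean level 55.6-fold lower, and the fold ran from 45.8 in clone 1 to 72.7 in clone 6. Of the same 10709 genes, 9 including CHAC1 had a ratio this low in their least lowered clone, against 27 for TRIB3, 40 for DDIT3, 82 for CEBPG, 85 for CEBPB, 393 for JDP2, 409 for PPP1R15A, 458 for ATF4, 587 for ATF3 and 3558 for ATF5. These ranks use the contrast that chose the genes and are a description only.

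**Figure D3:**
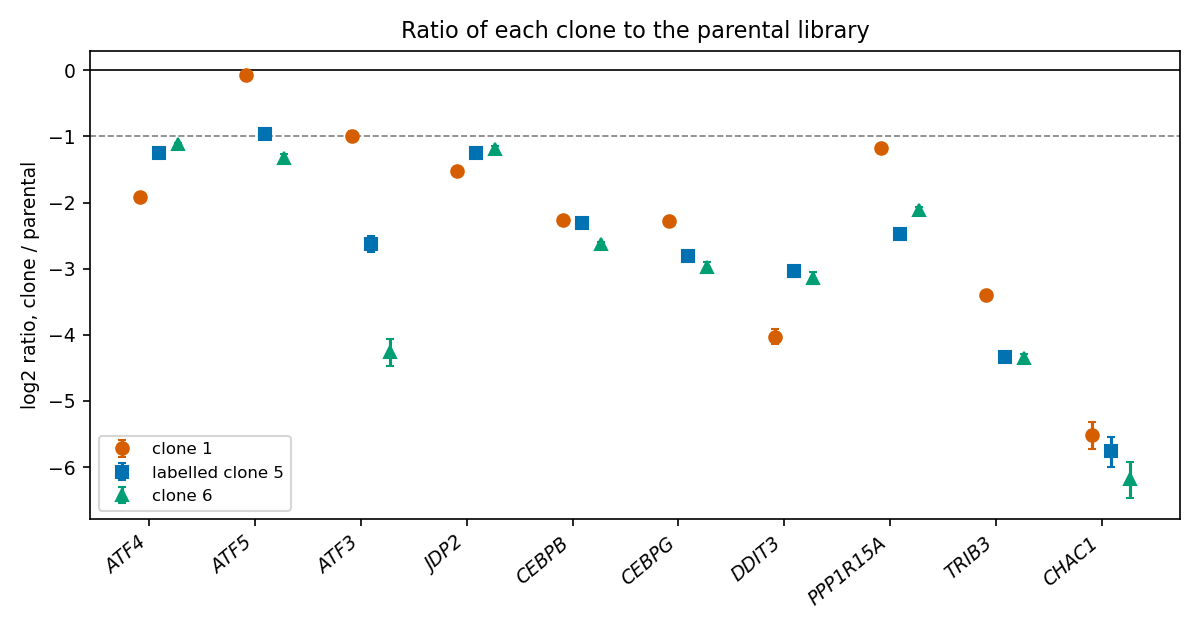
Log2 ratio of each NOS2KO library to the parental library for the 10 genes, with exact 95% intervals from the counts, which cover counting error only. Every point is below 0, from -0.08 for ATF5 in clone 1 to -6.18 for CHAC1 in clone 6.

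Per length of transcript, as TPM, which divides counts by exon length before scaling, the parental cells held the 10 genes in the order CEBPB (1283 TPM), ATF4 (894 TPM), TRIB3 (610.04 TPM), PPP1R15A (297 TPM), DDIT3 (294 TPM), CHAC1 (157 TPM), CEBPG (122 TPM), ATF5 (80.0 TPM), JDP2 (63.0 TPM) and ATF3 (38.0 TPM). With 1 parental library the order there has no replicate spread. In the clones ATF4 and CEBPB stayed the highest, at 205 to 396 TPM and 199 to 273 TPM. TRIB3, above PPP1R15A in the parental cells, was below both PPP1R15A and ATF5 in every clone, at 28.8 to 50.1 TPM. CHAC1 was the lowest or, in clone 6, the next to lowest, at 2.08 to 3.06 TPM. ATF5, the least lowered gene, stood at 30.6 to 65.7 TPM. The ranges of ATF4 and CEBPB overlapped over the clones, as did those of ATF5 and TRIB3.

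Among the clones, clone 1 was the highest for 7 of the 10 genes and the lowest for the other 3, which were ATF4, DDIT3 and JDP2. Clone 1 also stood further from the other clones over all genes, as the shares below show. For how many of all genes it was the highest or lowest clone was not counted. ATF3 (1.64 on the log2 scale) and PPP1R15A (1.30) were higher in clone 1 than in the library labelled clone 5 by more than 1, so 2 of 10 genes differed by that much, where 16.1% of 10194 genes did. Between clones 1 and 6 it was 2 of 10, ATF3 (3.28) and ATF5 (1.25), where 15.8% of genes differed. Between the library labelled clone 5 and clone 6 it was ATF3 alone (1.64), where 4.92% of genes differed. The median absolute log2 difference over the 10 genes was 0.77, 0.84 and 0.24 in these 3 pairs. TRIB3 differed between those clones by 0.017 (exact 95% interval -0.06 to 0.09) and DDIT3 by 0.10 (-0.01 to 0.22). CHAC1 in clone 1 and the library labelled clone 5 differed by 0.24 (-0.05 to 0.54). The intervals of the other 27 differences did not include 0, but with 1 library a clone they hold counting error only.

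**Figure D4:**
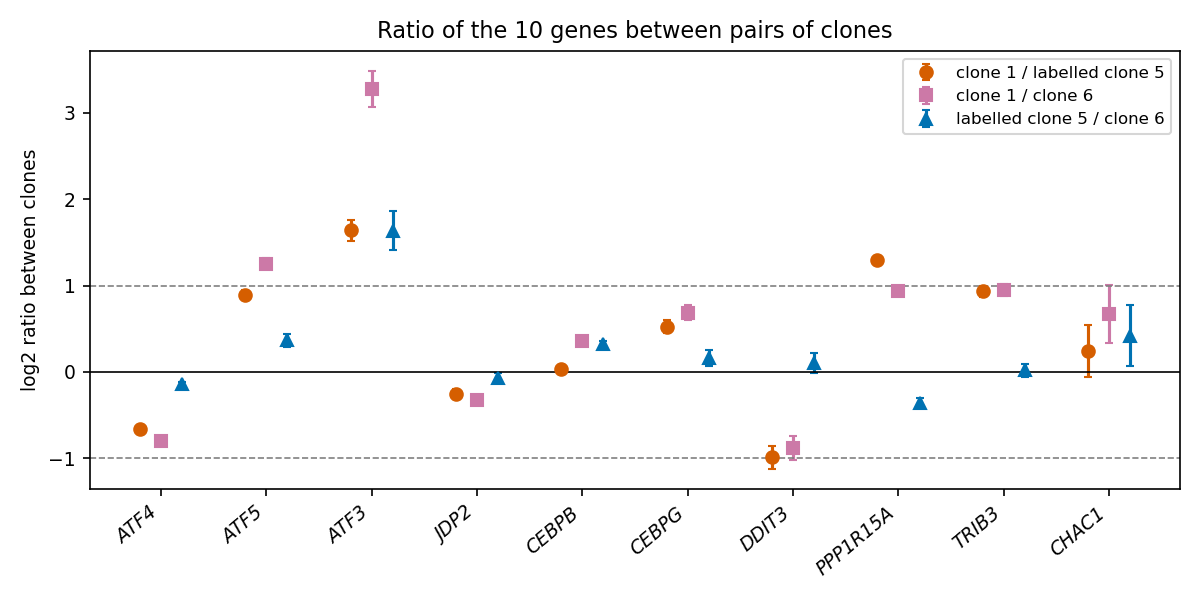
Log2 ratios between pairs of NOS2KO libraries for the 10 genes, with exact 95% intervals from the counts. ATF3 lies more than 1 from 0 in all 3 pairs, and the pair of the library labelled clone 5 and clone 6 has a median absolute difference of 0.24.

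For genes that are no members, the criterion was an unadjusted p under 0.05 by edgeR's quasi-likelihood test and a log2 fold change below -1 or above 1. By it 5.34% of the 22511 genes tested were lower and 4.24% were higher in the clones. At a Benjamini-Hochberg adjusted p under 0.05, edgeR called 1 gene in all, 0.00444% of those tested, while DESeq2's Wald test called 3.05% of 17710 genes lower and 3.13% higher. The lists below were written with earlier results of these libraries known and give no independent evidence of a direction.

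The 4 kinases that phosphorylate eIF2 did not meet the criterion in either direction. EIF2AK3, which encodes the ER stress sensor PERK, was at 33.8 CPM in the parental library and 23.2 to 28.1 over the clones, for a log2 fold change of -0.36 ± 0.30 (SE). EIF2AK4, the amino acid sensor GCN2, was at 113.1 CPM and 93.8 to 134.9 CPM, EIF2AK1, the heme sensor HRI, at 224.0 CPM and 144.7 to 223.7 CPM, and EIF2AK2, the RNA sensor PKR, at 89.9 CPM and 56.8 to 67.4 CPM. Levels of kinase mRNA do not measure kinase activity. Of 19 genes of eIF2, of its exchange factor eIF2B and of its phosphatases and regulators, 1 was lower by the criterion, EIF2S2, the beta subunit of eIF2. EIF2S2 was at 572.9 CPM in the parental library and 150.2 to 181.7 over the clones, for a log2 fold change of -1.81 ± 0.30 (SE), with an adjusted p of 0.28 by edgeR and 1.8e-04 by DESeq2, both with Benjamini-Hochberg adjustment, and up to 0.74 over the alternatives. Of the other eIF2 subunits, EIF2S1 was at a log2 fold change of -1.06 and did not meet the criterion, and EIF2S3 was at 0.04. The median log2 fold change of these 19 genes was -0.05.

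Downstream, 40 of 47 tested ATF4 target genes that are no members (of 48 listed, SLC7A3 was not tested) were lower by the criterion and 0 were higher. Their median log2 fold change was -2.11. The share was 85.1% of the list, beside the 5.34% of all genes. In every clone, 35 of the 43 targets that reached 10 CPM anywhere were lower by more than 1, and 0 were higher by more than 1, where 4.26% of all genes were. DESeq2 called 36 lower and 0 higher at an adjusted p under 0.05. INHBE, which encodes an activin subunit, was the 1 gene with an adjusted p under 0.05 by edgeR (0.038), at 265.8 CPM in the parental library and 0.891 to 1.11 over the clones, for a log2 fold change of -8.03 ± 0.28 (SE), and over the alternatives its adjusted p ran from 3.5e-83 by DESeq2 to 0.54, staying above 0.05 whenever any 1 clone was left out. GDF15, a stress hormone, was at 230.2 CPM in the parental library and 3.72 to 13.2 in the clones. CTH, the enzyme that makes cysteine from cystathionine, was at 78.4 CPM and 2.78 to 6.39 CPM. ASNS, asparagine synthetase, was at 386.1 CPM and 12.9 to 36.2 CPM. The fitted log2 fold changes of these 3 were -4.63 ± 0.72, -4.20 ± 0.55 and -3.98 ± 0.60 (SE), with adjusted p of 0.27, 0.26 and 0.27 by edgeR, none of which passed. In all 4 genes the clones lay far below the parental library.

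Of 12 genes of cell death linked to CHOP and of the apoptosis core, 6 were lower by the criterion and 0 higher. PMAIP1, which encodes the BH3-only protein NOXA, was at 62.2 CPM in the parental library and 6.91 to 15.9 in the clones. GADD45A, a growth arrest gene, was at 285.5 CPM and 40.9 to 75.1 CPM. TNFRSF10B, the TRAIL receptor DR5, was at 201.5 CPM and 49.7 to 81.3 CPM, and BBC3, which encodes PUMA, at 33.0 CPM and 8.72 to 14.5 CPM. The 6 also held TNFRSF10A, another TRAIL receptor, and BCL2, which protects from apoptosis, at log2 fold changes of -1.42 and -1.44. The lowered genes of this list therefore include genes that promote death and a gene that opposes it. The median of the list was -0.91.

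Of 21 ER chaperone and unfolded protein response genes, 8 were lower by the criterion and 1 higher, with a median log2 fold change of -0.41. ERN1, the ER stress sensor IRE1, was at 104.2 CPM in the parental library and 9.33 to 11.9 over the clones, for a log2 fold change of -3.35 ± 0.30 (SE). DNAJB9, a co-chaperone, was at 76.8 CPM and 19.8 to 21.4 CPM. HERPUD1, of ER-associated degradation and also on the ATF4 list, was at 225.3 CPM and 61.6 to 84.6 CPM, and HYOU1, an ER chaperone, at 2989 CPM and 779 to 1490 CPM. CALR, the chaperone calreticulin, was the gene higher by the criterion, at 851 CPM in the parental library and 1767 to 2656 in the clones, and it no longer met the criterion without the library labelled clone 5 or without clone 6. HSPA5, the chaperone BiP, had a log2 fold change of -0.60 and did not meet the criterion. CALR, XBP1 and HSPA5 were named after their values were seen.

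**Figure D5:**
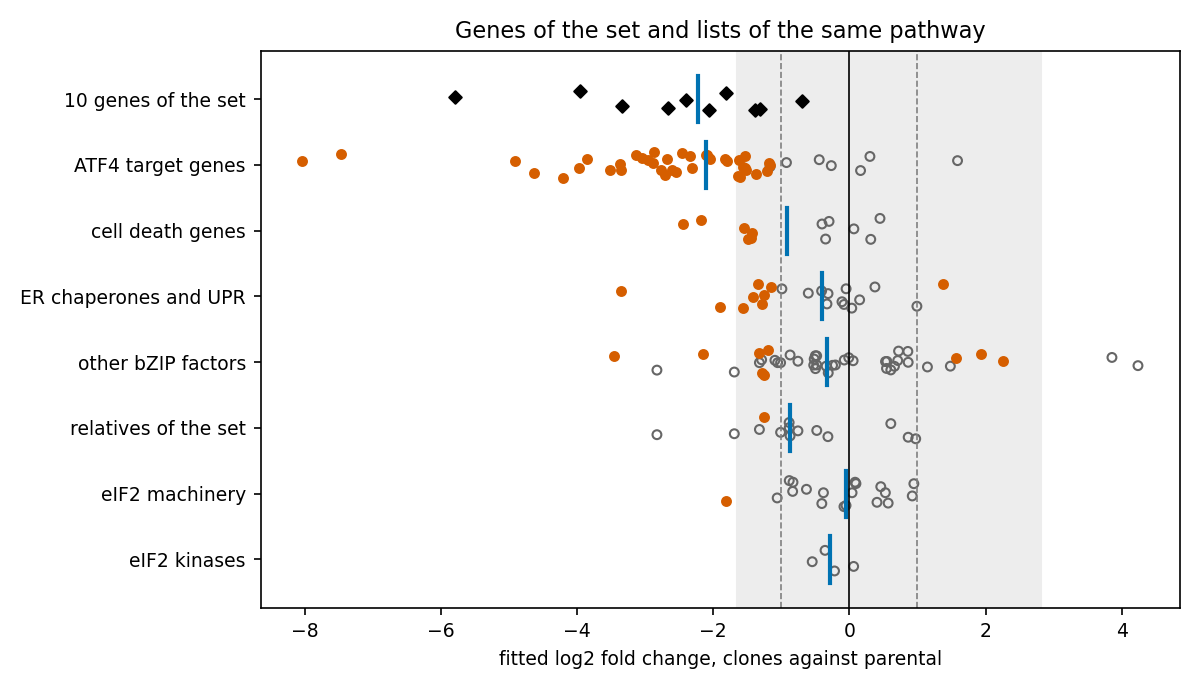
Fitted log2 fold changes of NOS2KO clones against the parental library for the members and 7 gene lists, with 1 point per gene (diamonds for the members, filled circles for genes that met the criterion, open circles for the others), a vertical bar at the median of each list, dashed lines at -1 and 1, and shading from the 5th to the 95th percentile of all genes tested (-1.64 to 2.81). The members (median -2.23) and the ATF4 targets (median -2.11) lie lowest. The genes of eIF2 and its regulators have a median of -0.05 and run from -1.81 to 0.95.

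The listed relatives of the 10 genes were mostly at log2 fold changes between -1 and 1, but leaned lower. FOS and JUN factors were not on this list, so the lean holds for the listed genes only. The FOS family, added after its values were seen, was at 3.86 (FOS), 4.24 (FOSB), -1.29 (FOSL1) and -0.008 (FOSL2). Of 14 tested relatives, 11 were below 0 and 3 above it, beside 10259 of all 22511 genes tested below 0. Those under -1 were BATF (-2.83), BATF3 (-1.69), CEBPA (-1.32), ATF6 (-1.26) and CREB5 (-1.01), and the highest was TRIB2 (0.97). Of the 14, 1 was lower by the criterion and 0 were higher, with a median of -0.88. That gene was ATF6, an ER-bound bZIP factor, at 134.9 CPM in the parental library and 51.5 to 62.0 in the clones. CEBPA, the C/EBP factor of differentiation, was at 14.6 CPM and 3.20 to 8.22 CPM, and CEBPD, induced in inflammation, at 163.6 CPM and 69.2 to 119.1 CPM, while CEBPE had at most 2 counts in a library and was not tested. For the pseudokinases, TRIB1 was at 38.5 CPM and 17.2 to 23.8 CPM and TRIB2 at 67.7 CPM and 86.5 to 181.0 CPM, so every clone was above the parental library in TRIB2 and below it in TRIB1 and TRIB3. PPP1R15B, the phosphatase subunit that is made without stress, was at 106.2 CPM and 54.8 to 62.8 CPM. CHAC2, the paralogue of CHAC1, was at 11.7 CPM in the parental library and 5.82 to 15.8 in the clones, which lay on both sides of it.

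The ATF and CREB relatives ATF1 (42.9 CPM in the parental library and 22.0 to 25.2 in the clones), ATF2 (47.1 and 30.0 to 37.7 CPM) and CREB5 (25.8 and 8.45 to 17.7 CPM) were lower in all clones, and ATF7 (19.1 and 21.4 to 39.4 CPM) was higher in all, with no gene of these meeting the criterion. BATF3, a small bZIP partner of JUN proteins, was at 11.5 CPM in the parental library and 1.57 to 5.90 in the clones, BATF2 at 1.76 and 1.31 to 4.50 CPM, and BATF had 28 counts in the parental library and 1 to 8 in the clones.

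Across 44 tested bZIP factors that are no members, 6 were lower and 3 higher by the criterion, with a median log2 fold change of -0.33. This list includes the ATF, CREB, BATF and C/EBP relatives above. ATF6 and XBP1, both among the lower genes, are also on the ER chaperone and unfolded protein response list. The counts of the lists are therefore not of separate genes. Of the 36 that reached 10 CPM anywhere, 4 were lower and 5 were higher by more than 1 in every clone. Without clone 1 the lower count was 12, and without the library labelled clone 5 the higher count was 6. MAFF, a small MAF protein, was at 120.2 CPM in the parental library and 8.02 to 16.3 in the clones, and NFE2L1, a bZIP factor of proteasome genes that pairs with small MAFs, at 900.3 CPM and 182.4 to 217.2 CPM. MAF was higher, at 11.3 CPM and 40.4 to 77.3 CPM, and so was NFE2, at 5.54 CPM and 14.4 to 25.8 CPM. The third higher factor was JUN, at 107.8 CPM and 234.4 to 398.3 CPM, a partner of ATF3 and JDP2. FOS was at 36.5 CPM in the parental library and at 102.4 to 1094 CPM in the clones, and did not meet the criterion, while its Benjamini-Hochberg adjusted p was 0.45 by edgeR and 0.018 by DESeq2, within a range of 0.018 to 0.76 over the alternatives. JUN and FOS were named after their values were seen.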

How the data were processed

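RNA-sequencing of poly(A)-enriched mRNA covered 1 parental library and 3 NOS2KO libraries of SUM159. The authors deposited raw read counts per gene without normalization. The submitters' processing notes name bcl2fastq 2.17, Trimmomatic 0.36, STAR 2.5.2b, featureCounts of Subread 1.5.2, DESeq2 and the build GRCh38. The annotation release and the strand setting are not given in the sources used here. Of 57500 gene identifiers, 56898 had a symbol in GENCODE release 29, which gave the names, and coordinates are those in the files.

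From these counts edgeR 4.0.16 in R 4.3.3 gave the fits (filterByExpr, TMM, glmQLFit, glmQLFTest) and Benjamini-Hochberg adjustment over 22511 genes. Only the clones inform the spread (2 residual degrees of freedom), which was taken to hold for parental cells too. Nothing in the labels says that libraries came from replicate cultures, so p-values measure the spread between clones, which may be technical in part. A permutation of 1 library against 3 could not give an exact p below 0.25. DESeq2 1.42.0, other scalings and filters, robust estimation and leaving out each clone were the alternatives. Exact Clopper-Pearson 95% intervals of log2 ratios cover counting error only. TPM used the exon lengths in the files. The fits were tested on simulated data, and Python 3.11.15 was used for the rest.

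The members and the 7 gene lists were chosen with earlier results of these data known. Named were all members, their relatives, the eIF2 kinases, NOS2 and, from each other list, the 4 genes with the largest absolute log2 fold change that met the criterion with at least 10 CPM in a library. Promoter sequences are RefSeq's on GRCh38.p14. Some items are not reported here.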

Additional observations from a re-analysis of the deposited data

How the results depend on the processing

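Of the counts and medians reported, 83 alternative values stayed within 1.5 times the main count or within the spread between clones, and 15 did not. The 1202 genes lower by the criterion ranged from 825 to 1608 with 1 clone left out, and the 955 higher from 641 to 1791, with 1591 by DESeq2. Genes with an adjusted p under 0.05 numbered 6 with no filter and 1095 by DESeq2, and 0 with any 1 clone left out by edgeR. The members lower by more than 1 in every clone were 8, 5 at a threshold of 2, 7 to 9 over the scalings and 8 to 9 with 1 clone left out. Their median log2 fold change ranged from -2.67, without clone 1, to -1.98. The ATF4 targets lower by the criterion ranged from 37 to 42. Other bZIP factors ranged from 4 to 12 lower and from 4 to 6 higher with 1 clone left out, with 5 higher under no filter and 5 by DESeq2, and ER genes higher by the criterion from 0 to 1. The fold change of EIF2AK4 was 0.063, and with 1 clone left out it ranged from -0.040, without clone 6, to 0.21. The cause of these shifts was not tested. A clone left out leaves fewer libraries for the spread. The median over all genes moved from 0.10 to 0.20 under upper quartile scaling and to 0.31 with no filter. No paired analysis was possible because there was only 1 parental library.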

Other observations

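The small MAF proteins, which lack an activation domain and pair with other bZIP factors, were all lower in the clones, while the large factor MAF was higher. MAFG was at 106.4 CPM in the parental cells, against 37.7 for clone 1, 42.2 for clone 6 and 59.9 for the library labelled clone 5. MAFK was at 127.3 CPM in the parental library and 63.0, 38.3 and 50.9 CPM in the clones in the same order. Both met the criterion, with log2 fold changes of -1.19 ± 0.36 and -1.33 ± 0.37 (SE), and neither passed adjustment by edgeR (Benjamini-Hochberg adjusted p of 0.35 and 0.34) or DESeq2 (0.14 and 0.092), with values up to 0.76 and 0.74 over the alternatives. XBP1, the bZIP factor whose mRNA is spliced by IRE1, was at 259.5 CPM in the parental library and 80.2 to 133.4 over the clones, for a log2 fold change of -1.29 ± 0.38 (SE). FOSB was at 3.77 CPM in the parental cells, against 159.2 for clone 1, 39.7 for clone 6 and 14.8 for the library labelled clone 5, and did not meet the criterion, with an adjusted p of 0.45 by edgeR and 0.011 by DESeq2, within a range of 0.011 to 0.75 over the alternatives. These 4 genes were named after their values were seen.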
